A study of Mus musculus with 8 samples.

Results

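Growth hormone and IGF1 axis genes of the mouse liver were followed here in 4 groups of mice that differ in genotype and in treatment with IUB288, a compound that activates the glucagon receptor. The set was listed by gene name, with earlier results of these data known, and holds 10 genes. They are the hormone gene Igf1, its serum carrier Igfals, the growth hormone receptor gene Ghr, the transcription factor genes Stat5a and Stat5b, the feedback inhibitor genes Cish, Socs2 and Socs3, the repressor gene Bcl6 and the receptor gene Egfr. They map, in mm10, to chr10:87859056-87937047 (Igf1), chr17:24878770-24882008 (Igfals), chr15:3317759-3583230 (Ghr), chr11:100859351-100885169 (Stat5a), chr11:100780731-100850585 (Stat5b), chr9:107296689-107301961 (Cish), chr10:95411490-95416857 (Socs2), chr11:117966087-117969813 (Socs3), chr16:23965052-23988612 (Bcl6) and chr11:16750269-16918201 (Egfr). All 10 were found among the 26682 loci of each table, and all 10 were tested in all 3 tables. Where a symbol stood at several loci, the locus with the highest level was taken, which concerned Bcl6 alone.

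Liver RNA came from 8 mice on the C57Bl/6J background. The groups were WT given vehicle, WT given IUB288, KO given vehicle and KO given IUB288, with 2 mice in each. KO is the label's word, and the design text speaks of mice with a floxed Fxr gene. Fxr, listed as Nr1h4, encodes the bile acid receptor FXR. The recombinase, its promoter and the tissue of the deletion are not given in the sources used here, nor are sex, age, dose and length of treatment. All mice had fasted for 2 h. High-fat and chow diets are both mentioned without a mouse being tied to either, so diet and group cannot be told apart. Xist, the transcript of the inactive X chromosome, lay between 0.00436 and 0.0172 FPKM over the groups, and the Y-linked gene Ddx3y between 5.54 and 9.28 FPKM.

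Growth hormone reaches the liver in pulses from the pituitary. Its receptor activates the kinase JAK2, which phosphorylates STAT5A and STAT5B, and STAT5 then switches on Igf1, Igfals and the genes of its own inhibitors. CIS, SOCS2 and SOCS3, the products of Cish, Socs2 and Socs3, bind phosphorylated receptors and damp the signal, while BCL6 is a repressor that binds DNA sites resembling those of STAT5. IGF1 from the liver circulates in a complex of IGFBP3 or IGFBP5 with the acid-labile subunit encoded by Igfals. Growth hormone also raises Egfr, the gene of the epidermal growth factor receptor, in mouse liver.

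The sequence around the start sites is shown for Cish and Bcl6, because both genes fell with IUB288 in KO mice and both carry several copies of the motif TTCNNNGAA, the form bound by STAT5. The windows are those of RefSeq on GRCm38.p6 and run from 250 bases before the start site to 50 bases after it, written along the strand of the gene, with capitals marking the motif. The motif reads the same on both strands, so one search covers both. Cish has 1 window, at chr9:107296409-107296708 on the plus strand. The Bcl6 window shown belongs to a start site inside the gene, at chr16:23981234-23981533 on the minus strand.
Cish: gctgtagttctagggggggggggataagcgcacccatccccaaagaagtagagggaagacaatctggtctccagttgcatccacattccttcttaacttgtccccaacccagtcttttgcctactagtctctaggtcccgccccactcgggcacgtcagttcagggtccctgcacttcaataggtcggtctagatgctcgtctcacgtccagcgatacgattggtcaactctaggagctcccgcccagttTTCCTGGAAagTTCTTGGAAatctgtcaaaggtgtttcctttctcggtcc
Bcl6: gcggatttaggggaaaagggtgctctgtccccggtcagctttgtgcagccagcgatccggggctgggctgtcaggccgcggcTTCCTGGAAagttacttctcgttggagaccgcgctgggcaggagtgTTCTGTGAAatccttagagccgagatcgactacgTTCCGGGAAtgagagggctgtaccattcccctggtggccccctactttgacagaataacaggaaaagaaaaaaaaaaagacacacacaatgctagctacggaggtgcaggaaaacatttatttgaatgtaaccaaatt

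In Cish the copies TTCCTGGAA and TTCTTGGAA began at bases 1 and 12 of the transcript. In the internal Bcl6 window TTCCTGGAA, TTCTGTGAA and TTCCGGGAA began 168, 122 and 88 bases before the start site. Among all 32851 windows of 300 bases, 8.30% held at least 1 copy, 0.457% at least 2 and 0.0335% at least 3. The windows shown were picked partly for their copies, so these shares are no test of them. RefSeq windows were matched for 9 of the 10 genes, Socs2 being the exception, and the motif lay in 6 of their 15 windows, which belong to 4 genes and partly to the same gene. The upstream Bcl6 window held TTCTCAGAA at 118 bases before the start, the Socs3 window TTCTTAGAA at 154 bases before it, and Igfals windows TTCTCAGAA and TTCCTAGAA at 236 and 58 bases before their starts. No copy lay in the windows of Igf1, Ghr, Stat5a, Stat5b and Egfr. A match is a string of letters in a window and not a measured site, and a window without one says nothing about STAT5 elsewhere at the gene.

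**Figure D1:**
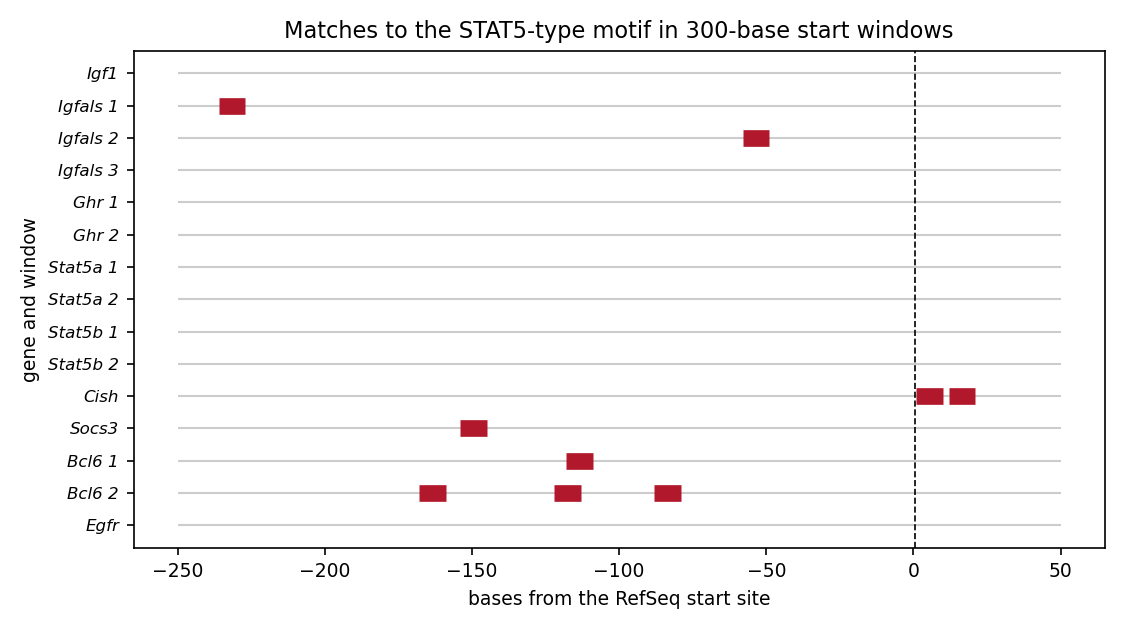
Position of each TTCNNNGAA match (red, drawn to scale) in the 15 start windows of 9 genes, in bases from the RefSeq start site (dashed line), with 1 row per window. Cish has 2 matches just after its start, and the second Bcl6 window has 3 before it.

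The authors' deposited tables hold 1 pooled value per group in FPKM, fragments per kilobase scaled to library size, and no value per mouse. The overlap of single mice between groups is therefore not known here, and depth per library is unknown. Values after ± are standard errors of a log2 fold change implied by the authors' test statistic, and a gene is said to rise or fall where the authors' q-value is under 0.05. Without values per mouse no exact or permutation test can be made, so all p-values here rest on the authors' model or on a normal approximation. Each table is scaled on its own, with the KO IUB288 group 1.05 times and the WT IUB288 group 1.08 times as high in the treatment tables as in the genotype table at the median. The targeted gene Nr1h4 lay at 49.3 and 36.8 FPKM in WT and KO under vehicle. Under IUB288 it lay at 37.4 and 25.7 FPKM (-0.54 ± 0.41, q = 1.00, in the authors' deposited table), so the labelled deletion was not seen as a called difference in this transcript, and the genotypes below are those of the labels. Which exons are floxed is not stated. Among 10 hepatocyte markers Alb was listed at 0 in both vehicle groups and not tested there, while Hnf4a, the lowest of the other 9, was at 121 FPKM or more. A bulk level does not tell fewer cells of a type from less RNA per cell.

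The genes differed widely in level per length. In WT given vehicle, Ghr at 211 FPKM and Igf1 at 115 FPKM exceeded 97.5% and 95.6% of 15164 tested loci. Igfals, Egfr, Bcl6 and Stat5b followed at 29.5, 26.4, 12.6 and 11.3 FPKM. Cish (5.40), Socs3 (3.45), Stat5a (2.82) and Socs2 (1.93) were the low end in FPKM, and Socs2 exceeded 39.6% of the tested loci. Ghr and Igf1 were thus the abundant transcripts, and Stat5a stood among the 3 feedback inhibitors at the low end. Stat5b was above Stat5a in all 4 groups, and since these are close paralogs, their reads may be divided unevenly.

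**Figure D2:**
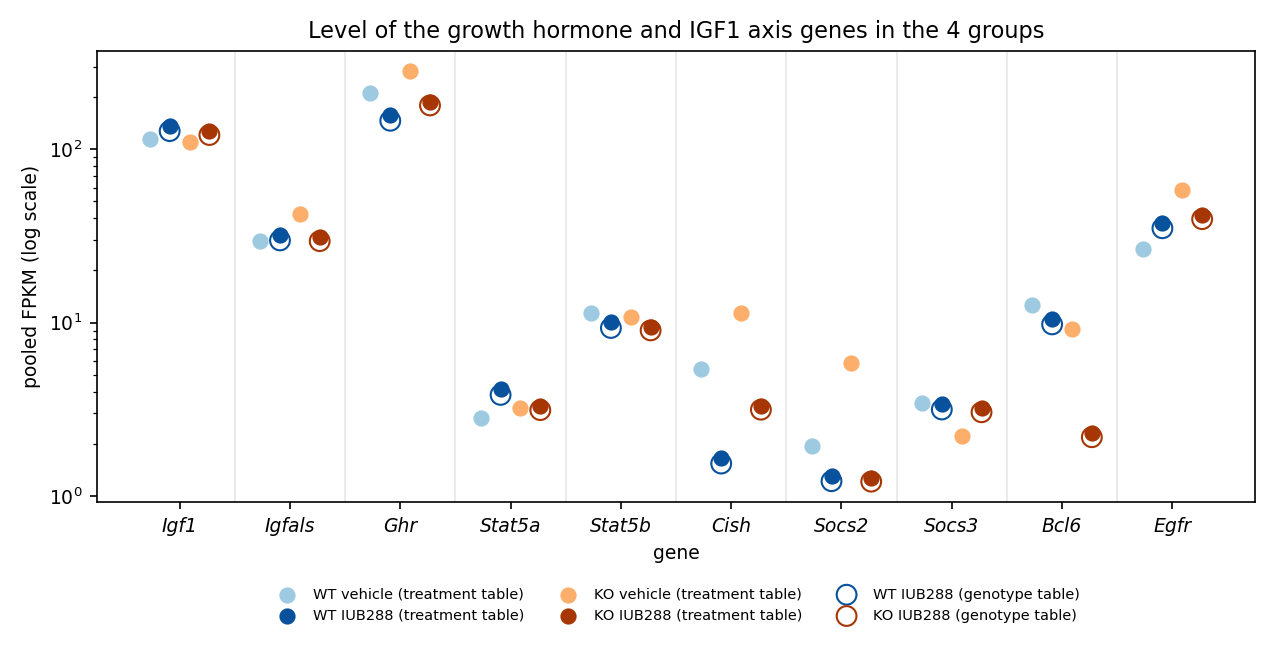
Pooled FPKM (log axis) of the 10 genes in each of the 4 groups, 2 mice pooled per point. Filled points come from the treatment tables and open rings from the genotype table, so a ring around a point of the same colour shows the difference in scaling. Cish and Socs2 stand highest in KO given vehicle (11.4 and 5.82 FPKM).

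Igf1, the hormone gene itself, did not pass in either genotype. Igf1 went from 115 to 137 FPKM in WT and from 110 to 127 FPKM in KO. The authors' deposited tables give log2 fold changes of 0.26 ± 0.68 (q = 0.867) in WT and 0.21 ± 0.63 (q = 0.917) in KO. The 95% intervals, -1.07 to 1.59 and -1.03 to 1.44, still allow a change of more than 2-fold in either direction, so Igf1 was not detectably changed rather than shown to be constant. These intervals use the implied errors, at the median 1.42 times those the p-values imply, and their lower limits pass 2-fold only narrowly. Igfals, the carrier gene, went from 29.5 to 32.1 FPKM in WT and from 42.2 to 31.1 FPKM in KO. Its log2 fold changes in the authors' deposited tables were 0.12 ± 0.39 (q = 0.905) and -0.44 ± 0.35 (q = 0.419). Under IUB288 the KO and WT groups were nearly level in both genes, with log2 values of -0.07 ± 0.66 for Igf1 and -0.01 ± 0.40 for Igfals (q = 1.00 each) in the authors' deposited table.

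The receptor and the STAT5 genes did not pass either. Ghr went from 211 to 157 FPKM in WT and from 282 to 188 FPKM in KO, lower with IUB288 in both genotypes. In the authors' deposited tables its log2 values were -0.43 ± 0.53 (q = 0.624) and -0.58 ± 0.50 (q = 0.471). The Ghr locus also yields the circulating growth hormone binding protein by alternative splicing in mice, and a value per locus does not separate the forms. Stat5b went from 11.3 to 10.02 FPKM in WT and from 10.8 to 9.49 FPKM in KO, with the narrowest errors of the 10 genes in WT (-0.18 ± 0.39, q = 0.835, in the authors' deposited table). Its interval in KO, -0.89 to 0.51, keeps the change under 2-fold in both directions. Stat5a went from 2.82 to 4.12 FPKM in WT (0.55 ± 0.43, q = 0.356) and from 3.23 to 3.29 FPKM in KO (0.03 ± 0.42, q = 0.986) in the authors' deposited tables.

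The feedback inhibitor Cish fell in both genotypes. It went from 5.40 to 1.65 FPKM in WT, a 3.27-fold decrease, and from 11.4 to 3.31 FPKM in KO, a 3.44-fold decrease. The log2 fold changes in the authors' deposited tables were -1.71 ± 0.56 (q = 0.00163) and -1.78 ± 0.48 (q = 0.00189). With p-values taken from the authors' deposited test statistic by a normal approximation, the WT value no longer passed (adjusted p = 0.0750). The difference of the effects, KO minus WT, was -0.07 ± 0.74 log2 units, with a 95% interval of -1.52 to 1.37. Within each treatment KO stood above WT, and under IUB288, in the genotype table, Cish was at 1.54 FPKM in WT and 3.14 in KO. The authors' deposited table puts this at 1.03 ± 0.59 log2 units, with an unadjusted p of 0.0135 and q = 0.648, which did not pass.

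Socs2, another STAT5 target and a negative regulator of growth hormone signalling, fell in KO. It went from 5.82 to 1.27 FPKM there, a 4.57-fold decrease, and from 1.93 to 1.31 FPKM in WT. The authors' deposited tables give -2.19 ± 0.53 (q = 0.00189) in KO and -0.56 ± 0.60 (q = 0.543) in WT. Only the KO vehicle group was high, at 3.01 times the WT vehicle level, and the other 3 groups lay close together. Under IUB288 the genotypes were level at 1.22 and 1.21 FPKM, a log2 value of -0.01 ± 0.64 (q = 1.00) in the authors' deposited table. The effect in KO minus that in WT was -1.63 ± 0.80, with an unadjusted p of 0.0408 and an adjusted p of 1.00 over 13521 loci, so a difference between the genotypes was not established. With a pseudocount of 1 the KO value was -1.59, the level being low.

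Socs3, which answers mainly to STAT3 and cytokines, did not pass. It went from 3.45 to 3.39 FPKM in WT and from 2.21 to 3.20 FPKM in KO, with log2 values of -0.02 ± 0.46 (q = 0.986) and 0.54 ± 0.48 (q = 0.498) in the authors' deposited tables. The inhibitor genes thus did not move as a block: Cish fell in both genotypes, Socs2 passed in KO, and Socs3 was not lower in KO.

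Bcl6 fell in KO as well. It went from 9.24 to 2.29 FPKM in KO, a 4.03-fold decrease, and from 12.6 to 10.6 FPKM in WT. The authors' deposited tables put it at -2.01 ± 0.60 (q = 0.00189) in KO and -0.26 ± 0.63 (q = 0.867) in WT. Here the KO IUB288 group alone was low, whereas for Socs2 the KO vehicle group alone was high. Under IUB288 the genotype table lists Bcl6 at 9.76 FPKM for WT and 2.18 for KO. That is -2.16 ± 0.76 log2 units with p = 0.0006 and q = 0.0870 in the authors' deposited table, the lowest q of the 10 genes in this comparison but not a pass. Computed from the authors' deposited values, the effect in KO minus that in WT was -1.75 ± 0.87, with an unadjusted p of 0.0449 and an adjusted p of 1.00. A second locus with the same coordinates and symbol was lower in level, and under IUB288 it ran the other way, at 0.642 FPKM in WT and 1.52 in KO. With both loci summed the log2 value for IUB288 in KO was -1.60, and that for KO against WT under IUB288 was -1.49 in place of -2.16, neither with a test.

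Bcl6 is also transcribed in leukocytes. The summed FPKM of 12 Kupffer cell and macrophage markers went from 201 to 304 in WT and from 145 to 116 in KO. With IUB288 1 of the 12 rose in WT, beside 3.96% of all tested loci, too few to read against that share. In KO 0 of the 12 passed, beside 5.51%. Under IUB288, in the genotype table, the sum was 282 in WT and 110 in KO. There 6 of the 12 were lower in KO and none higher, beside 0.216% and 0.323% of all tested loci. No marker of this list was at 0 in any group. Over 8 loci of lymphocyte and granulocyte markers, the summed FPKM went from 6.93 to 11.4 in WT and from 3.75 to 5.64 in KO. In the genotype comparison under IUB288 that sum was 10.5 in WT and 5.36 in KO. None of the 6, 5 and 6 loci tested there passed by the authors' test, beside 7.37%, 5.51% and 0.539% of all tested loci. The part of these cells in the levels of Bcl6 and Socs3 was not tested.

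Egfr went from 26.4 to 37.7 FPKM in WT and from 57.9 to 41.6 FPKM in KO, opposite in sign and within error in both. The authors' deposited tables give 0.51 ± 0.52 (q = 0.516) and -0.48 ± 0.68 (q = 0.688). Under IUB288 the genotypes stood at 35.0 and 39.5 FPKM (0.18 ± 0.52, q = 1.00, in the authors' deposited table).

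Counted over the set, 1 of 10 genes fell with IUB288 in WT, beside 3.4% of all tested loci lower, and none rose, beside 3.96% higher and 7.37% in either direction. In KO 3 of 10 fell, beside 2.37% lower, and none rose, beside 3.13% higher and 5.51% in either direction. Between KO and WT under IUB288, 0 of 10 passed by the authors' Cuffdiff test, beside 0.539% of loci, or 0.323% higher and 0.216% lower in KO. Of the 10, 2 had an unadjusted p under 0.05 there, Cish on the higher side, beside 2.03% of loci, and Bcl6 on the lower side, beside 2.08%. With normal p-values from the statistic the count there was also 0. The median log2 fold change of the 10 genes was -0.10 in WT against 0.03 over all tested loci, -0.46 in KO against -0.00218, and -0.03 between genotypes against -0.01. For the difference of the effects, 0 of 10 passed the test with implied errors, beside 0.104% of loci, and 2 of 10 had an unadjusted p under 0.05, beside 1.08%. The single call in WT is too few to read against its background, and since the genes were chosen with results known, the KO count is a description.

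**Figure D3:**
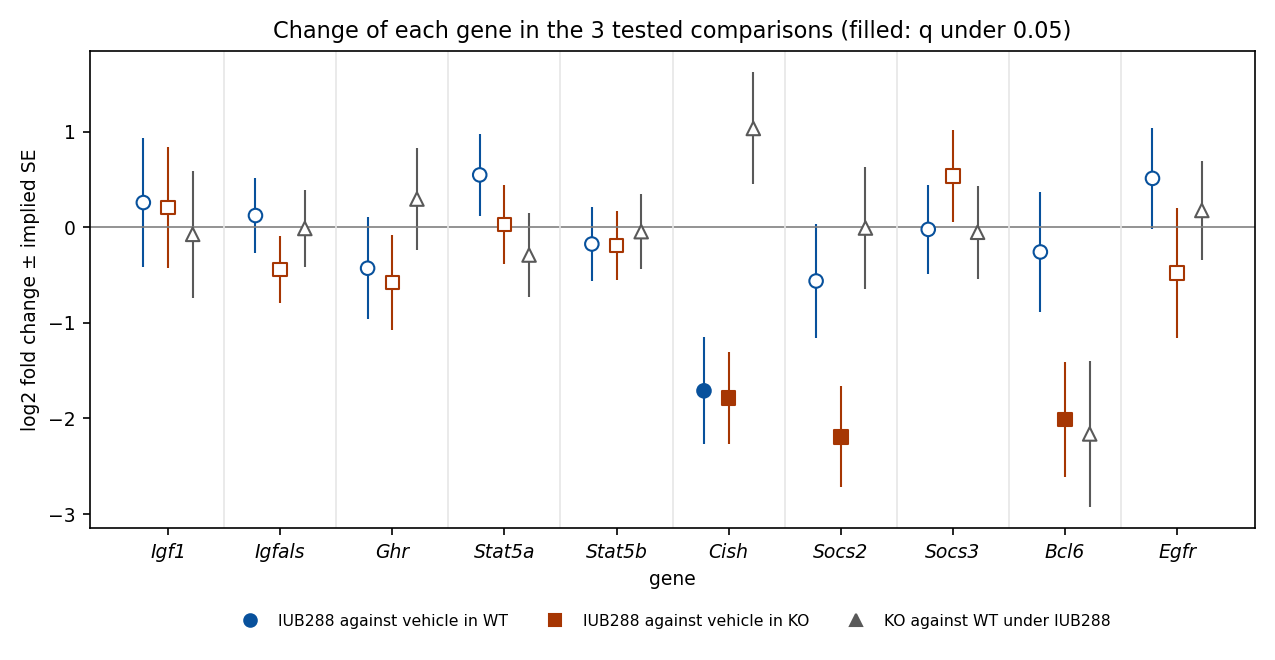
Log2 fold change of each gene in the 3 comparisons the authors tested, with implied standard errors as bars and filled symbols where q is under 0.05. The 4 filled symbols are Cish in WT and Cish, Socs2 and Bcl6 in KO, all below 0.

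The vehicle groups stand in different tables, so KO against WT under vehicle has no test. It was derived on the log2 scale from the 3 tables as the genotype value under IUB288 minus the treatment effect in KO plus that in WT. Without drug, 3 genes were more than 2-fold higher in KO, namely Socs2 (1.62), Egfr (1.16) and Cish (1.11), all in log2 units. Of 10598 loci with at least 1 FPKM, 1.29% exceeded 2-fold in this direction. Their levels were 5.82, 57.9 and 11.4 FPKM in KO, against 1.93, 26.4 and 5.40 FPKM in WT. Igfals (0.55), Ghr (0.45) and Stat5a (0.23) were also above 0 in log2 units, Igf1 (-0.02) and Stat5b (-0.03) close to it, and Bcl6 (-0.41) and Socs3 (-0.61) below. The derived value rests on the same samples as the 3 comparisons and adds no evidence to them. It places the baseline: 2 of the 3 genes that fell in KO, Cish and Socs2, started from a higher pooled level than in WT.

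**Figure D4:**
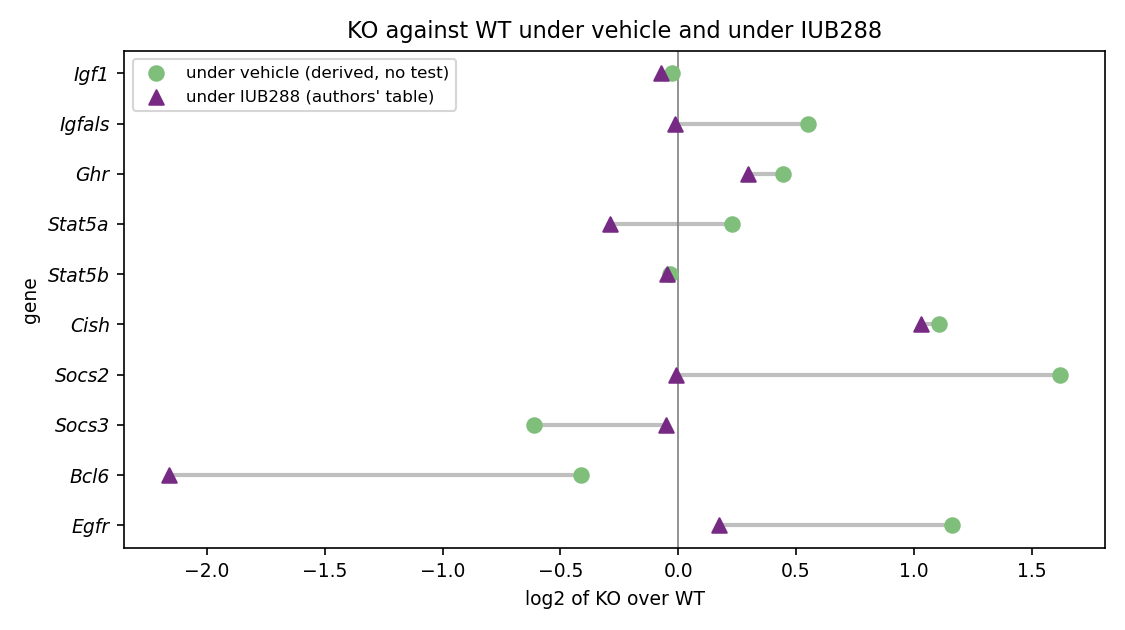
Log2 of KO over WT for each gene under vehicle (circles, derived, no test) and under IUB288 (triangles, authors' table), joined by a line. Socs2 moves from 1.62 to -0.01 and Bcl6 from -0.41 to -2.16, while Cish stays near 1 and Igf1 near 0.

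Selenbp2 and Hsd3b5, male-biased targets of pulsatile growth hormone in mice, had their highest level in KO given vehicle too. Selenbp2 measured 155 FPKM in KO given vehicle, 9.07 in WT given vehicle, 5.20 in KO given IUB288 and 3.13 in WT given IUB288. For Hsd3b5 these levels were 133, 10.3, 27.6 and 7.08 FPKM. Other male-biased targets were highest in KO given IUB288. There Mup20 stood at 5644 FPKM and Gstp1 at 1200 FPKM, against 3346 and 283 FPKM in KO given vehicle. Of 18 tested male-biased targets 6 fell and 1 rose in KO, beside 2.37% and 3.13% of all tested loci. Of 17 tested in WT 5 fell and 6 rose, beside 3.4% and 3.96%.

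Among other genes of growth hormone receptor signalling, 1 of 22 tested rose in WT and none fell, and 0 of 21 passed in KO by the authors' test. Over all tested loci 3.96% rose and 3.4% fell in WT, and 5.51% passed in KO, so the WT count is near the background. The gene was Irs1, the insulin receptor substrate, at 1.57 ± 0.48 (q = 0.00163) in the authors' deposited table for WT and at 0.73 ± 0.39 (q = 0.116, unadjusted p = 0.00915) in that for KO. Jak2, the kinase next to the receptor, went from 3.36 to 2.51 FPKM in WT and from 3.35 to 2.62 FPKM in KO, and did not pass. The median log2 fold changes of the list were 0.01 and 0.02, beside 0.03 and -0.00218 over all tested loci. None of the remaining SOCS genes in the list, Socs1, Socs4, Socs5, Socs6 and Socs7, passed in either genotype, and Socs1 was not tested in KO.

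Several genes of proteins that carry or free IGF1 passed where Igf1 did not. In WT 2 of 10 tested IGF ligands, receptors, carriers and proteases rose and 2 fell, beside 3.96% and 3.4% of all tested loci. In KO 2 of 11 rose and none fell, beside 3.13% and 2.37%. Igfbp1, whose product binds IGF1 outside the ternary complex and is induced in fasting, went from 37.0 to 71.6 FPKM in WT and from 11.2 to 39.7 FPKM in KO. It rose by 0.95 ± 0.45 (q = 0.0468) and 1.82 ± 0.40 (q = 0.00189) on the log2 scale in the authors' deposited tables. The gene of the secreted protease HTRA1, which cleaves IGF binding proteins, rose by 2.54 ± 0.53 in WT (q = 0.00163) and 2.44 ± 0.57 in KO (q = 0.00189) in the authors' deposited tables.

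The genes of both alternative binding proteins of the ternary complex, Igfbp3 and Igfbp5, fell in WT, while Igfals did not pass. Igfbp3 went from 12.04 to 3.70 FPKM in WT and from 6.89 to 4.81 FPKM in KO, with log2 values of -1.70 ± 0.45 (q = 0.00163) and -0.52 ± 0.40 (q = 0.398) in the authors' deposited tables. Igfbp5 went from 3.39 to 1.23 FPKM in WT and from 1.41 to 2.66 FPKM in KO, or -1.46 ± 0.47 (q = 0.00163) and 0.91 ± 0.44 (q = 0.0594) in the authors' deposited tables. The Igfbp5 effects differed by 2.37 ± 0.65 log2 units, with an unadjusted p of 0.000242 and an adjusted p of 0.205. Both genes are expressed by non-parenchymal liver cells. The summed FPKM of 12 stellate cell and fibroblast markers went from 211 to 130 in WT and from 146 to 138 in KO. Of the 12, 6 fell and none rose in WT, beside 3.4% and 3.96% of all tested loci. In KO 1 fell, beside 2.37%, too few to read against that share. None of the 12 was at 0 in any group. Other non-parenchymal lists differed. The sum of 10 sinusoidal endothelial markers went from 116 to 99.7 in WT and from 93.3 to 82.2 in KO. Of these 10, 1 fell in WT, beside 3.4%, too few to read, and 0 passed in KO, beside 5.51%. The macrophage marker sum went from 201 to 304 in WT and from 145 to 116 in KO. The part of these cells in the levels of Igfbp3 and Igfbp5 was not tested. Igfbp4, the most abundant carrier gene per length, went from 929 to 1099 FPKM in WT and did not pass. Pappa2, a protease of IGFBP3 and IGFBP5, was higher in KO under IUB288 at 1.09 against 0.217 FPKM (2.33 ± 0.61, q = 0.0118, in the authors' deposited table). For IUB288 in KO it went from 0.00552 to 1.14 FPKM and did not pass (q = 0.556 in the authors' deposited table), and in WT it was not tested.

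Around Egfr, 2 of 10 tested ligands, partners and feedback genes fell in WT, beside 3.4% of all tested loci, and 2 of 9 in KO, beside 2.37%. None was higher, and Erbb3 and Spry4 were the pair in both genotypes. Erbb3, a partner receptor of EGFR, went from 27.0 to 14.6 FPKM in WT and from 26.4 to 15.2 FPKM in KO. Its log2 fold changes were -0.88 ± 0.39 (q = 0.0235) and -0.79 ± 0.36 (q = 0.0308), as the authors' deposited tables have it. Spry4, a feedback inhibitor of receptor tyrosine kinase signalling, fell in both genotypes, with log2 values of -1.75 ± 0.48 (q = 0.00163) and -1.43 ± 0.45 (q = 0.00346) from the authors' deposited tables. Errfi1, whose product inhibits EGFR directly, went from 293 to 314 FPKM in WT and from 241 to 375 FPKM in KO and did not pass.

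Around Socs3, the receptors and acute phase targets of the IL-6 and STAT3 route gave different counts in the genotypes, while Socs3 lay between 2.21 and 3.45 FPKM. In WT 8 of 16 tested loci rose and 3 fell, beside 3.96% and 3.4% of all loci. In KO 1 rose and 2 fell, beside 3.13% and 2.37%, and counts this small are not read against that share. The summed FPKM of this list went from 8141 to 19280 in WT and from 7698 to 8464 in KO. Abundant genes weigh most in it, and Hp alone went from 1773 to 7434 in WT and from 1433 to 2615 in KO, where it did not pass. The median log2 fold change of the list was 0.95 in WT and -0.09 in KO. The macrophage marker sum given above, which has no test, went from 201 to 304 in WT and from 145 to 116 in KO. The part of these cells in the list was not tested. Lcn2, the gene of lipocalin 2, went from 24.5 to 369 FPKM in WT and from 13.5 to 13.6 FPKM in KO. Its log2 values were 3.91 ± 0.51 (q = 0.00163) and 0.01 ± 0.48 (q = 0.995) in the authors' deposited tables. Lifr, the receptor gene for leukaemia inhibitory factor, rose by 2.43 ± 0.47 (q = 0.00163) in WT and by 1.18 ± 0.45 (q = 0.00761) in KO in the authors' deposited tables. The 3 loci of the list that fell in WT were receptor genes too, and none of them passed in KO. By the authors' test their log2 values in WT were -1.14 for Il6ra (q = 0.00433), -1.44 for Osmr (q = 0.0206) and -1.13 for Il1r1 (q = 0.0241). Stat3 went from 19.5 to 30.8 FPKM in WT and from 20.9 to 31.2 FPKM in KO, with q-values of 0.149 and 0.210 in the authors' deposited tables. Of 11 tested transcription regulators downstream of growth hormone, 2 fell in WT, beside 3.4% of all tested loci, and 1 in KO, beside 2.37%, with none higher. The pioneer factor gene Foxa1 fell in both genotypes, at -1.05 ± 0.45 (q = 0.0228) in WT and -1.47 ± 0.40 (q = 0.00189) in KO by the authors' deposited tables. Cebpb fell in WT (-1.02 ± 0.40, q = 0.00163, from the authors' deposited table).

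**Figure D5:**
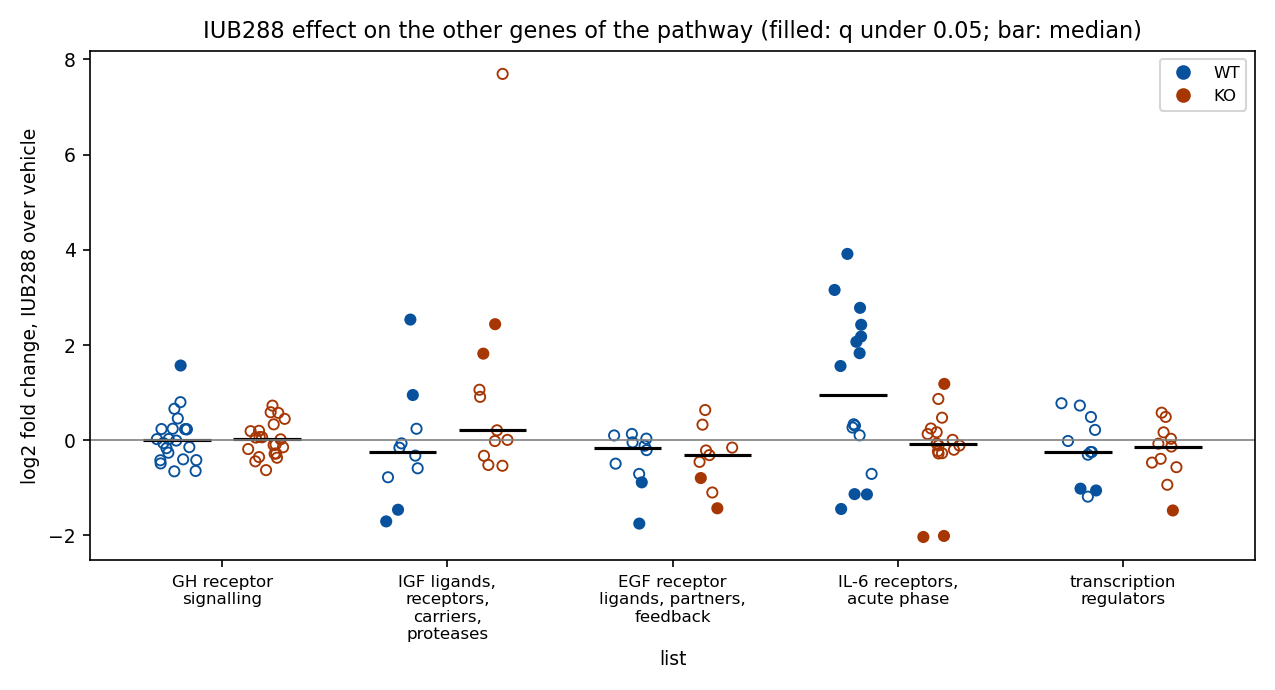
Log2 fold change with IUB288 of every tested locus in 5 lists, in WT (blue) and KO (brown), with filled points where q is under 0.05 and bars at the median. The IL-6 list in WT holds the most filled points, with Lcn2 at 3.91, and in the EGF receptor list the filled points lie below 0.

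Genes with the most similar pattern over the 3 comparisons were sought by Euclidean distance between log2 fold changes, among 10598 loci. Nearest to Cish were Slc16a12, at a distance of 0.170, 2610305D13Rik at 0.203 and Col27a1 at 0.300. Slc16a12 went from 9.35 to 2.76 FPKM in WT and from 16.3 to 5.24 FPKM in KO. Nearest to Socs2 were Cyr61 at 0.549, Pcp4l1 at 0.602 and Fzd8 at 0.635. Cyr61 went from 2.35 to 1.73 FPKM in WT and from 5.80 to 1.82 FPKM in KO. Bcl6 had no close neighbour, with BC028528, Rnaset2b and Fam83h at 0.927, 0.931 and 1.17, and none of these passed in any of the 3 tables. The distances are over 3 values that share groups and describe likeness only.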

How the data were processed

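Liver RNA of 8 mice was sequenced from TruSeq libraries, per the labels' protocols. The submitters' processing notes name TopHat2 2.0.12 with Bowtie2 2.2.3 as aligners, Cufflinks 2.2.1 and Cuffdiff for expression, bcl2fastq 1.8.4 and Trim Galore 0.4.0 for reads, and the builds mm10 and hg19; the loci match mm10. Use of strand is not stated. The authors deposited 3 full tables with pooled FPKM per group, a log2 fold change, a test statistic (a score), a p-value and a q-value per locus. The smaller sheets were not used. Depth per library is unknown. Per-sample columns left unmapped numbered 0.

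Implied errors are the log2 fold change over the statistic; they were 1.42 times those the p-values imply, at the median. The smallest p in the tables is 5e-05. The difference KO minus WT used both errors, a normal two-sided p and Benjamini-Hochberg adjustment over 13521 loci. It was run on simulated effects drawn with these same errors, which cannot show whether the errors suit these data. In the data 1.08% of the loci had an unadjusted p under 0.05 by this test, fewer than a calibrated test gives without any true difference. Intervals are 95% and cover these errors only. Locus starts count from 0 in the tables (of 5838 loci whose end matches GENCODE M21, 2626 start 1 base below it and 167 at it). The genes and lists were chosen with earlier results of these data known. Named were the 10 genes, Hsd3b5 and Selenbp2, up to 4 called genes per list and comparison by size at 1 FPKM or more, of which the text gives those nearest the axis, and the 3 nearest loci of each called gene; others were chosen after their values were seen. 1 male-biased entry whose alias pointed to another gene was dropped. Computation used scipy 1.17.1, pandas 2.3.3 and numpy 2.4.6 under Python 3.11.15. Whether the mice are from separate litters or cages is not stated.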

Additional observations from a re-analysis of the deposited data

Results flagged for a closer look

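When the response to IUB288 in WT was subtracted from that in KO, none of the 10 genes passed, and 6 genes of the surrounding lists did, each with an adjusted p under 0.05 over all loci and 2 mice per group. Over all 13521 loci 14 passed, or 0.104%. Of the tested list members, 3 of 16 acute phase loci were lower and 1 of 13 female-biased targets higher. Of 17 male-biased targets 1 was higher and 1 lower. The lists were chosen with earlier results known, so these counts are a description. Among acute phase genes, computed from the authors' deposited values, the log2 difference was -5.17 ± 0.71 for Saa2 (adjusted p = 1.58e-09), -4.21 ± 0.67 for Saa1 (adjusted p = 1.08e-06) and -3.91 ± 0.70 for Lcn2 (adjusted p = 5.93e-05). Among sex-biased growth hormone targets, computed from the authors' deposited values, it was -3.36 ± 0.68 for Selenbp2 (adjusted p = 0.00198), 3.48 ± 0.83 for Cyp4a12b (adjusted p = 0.0325) and 3.68 ± 0.80 for Cyp2a4 (adjusted p = 0.00792). Saa1 and Saa2, like the Cyp4a12 and Cyp2a genes, have close paralogs between which reads may be divided.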

How the results depend on the processing

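With normal p-values from the authors' deposited test statistic, 0 of the 10 genes passed for IUB288 in WT in place of 1, the lost gene being Cish (adjusted p = 0.0750); the counts of 3 in KO and 0 between genotypes were unchanged. The counts also held with q under 0.01 and with a minimum of 1 FPKM. The test of the difference gave 0 of 10 under stricter thresholds, the filter, p-implied errors and centring, with 2 genes at an unadjusted p under 0.05 in each except centring, which gave 1. A pseudocount of 1 took Socs2 in KO from -2.19 to -1.59, more than its error, and moved no other value that far. Taking vehicle levels straight from the FPKM columns gave a median of 0.31 over the 10 genes against 0.34 derived. Summing both Bcl6 loci was chosen after seeing the data and moved the genotype value under IUB288 from -2.16 to -1.49. Leaving out single mice was not run, since no value per mouse was given. No paired analysis was possible because the tables hold pooled values and the labels number mice individually. With 2 mice per group and no depth, a gene that did not pass is not shown to be unaffected.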

Other observations

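Onecut1, the gene of the growth hormone-responsive factor HNF6, was chosen here after its values were seen. It stood at 2.56 FPKM in WT given vehicle, 4.38 in WT given IUB288, 16.4 in KO given vehicle and 8.58 in KO given IUB288. The authors' deposited tables give 0.78 ± 0.55 (q = 0.225) for IUB288 in WT, -0.93 ± 0.60 (q = 0.217) in KO and 1.00 ± 0.43 (q = 0.0814) for KO against WT under IUB288, and none passed. Its derived log2 value under vehicle, 2.71, exceeded that of all 10 genes of the axis and has no test.

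Female-biased growth hormone targets moved in both directions. Of 15 tested in WT 3 rose and 3 fell, beside 3.96% and 3.4% of all tested loci. Of 13 tested in KO 4 rose and 2 fell, beside 3.13% and 2.37%. Cyp17a1 rose by 2.70 in WT and 3.27 in KO on the log2 scale, and Cyp2b9 changed by -3.25 and -2.85, with q = 0.00163 in WT and q = 0.00189 in KO in the authors' deposited tables.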
